A study of Mus musculus with 4 samples.

Results

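Sarcomere and Z-disc genes were compared between hearts after myocardial infarction (MI) and after sham surgery. The 33 genes encode sarcomere proteins apart from the myosin heavy chains, together with the factors that assemble and turn over the sarcomere. They were found by gene symbol, each in 1 row, among the 55401 gene rows of the deposited table, and all 33 passed the filter on low counts that left 18475 genes for testing. Poly(A) RNA came from mouse heart at day 28. The MI group (n = 2) had a ligation operation, whereas Sham animals (n = 2) underwent thoracotomy but no ligation. The sources used here state no strain, sex or age, nor how many animals a library stands for. Nothing says that the replicates are separate animals, and p-values then cover only library-to-library spread, which can be technical. The design text speaks of infarct and left ventricle, but each sample's own label says heart and gives no region. Cyanidin, a flower and fruit pigment, appears in the title of the series, and no heart given it was analysed here.

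The sarcomere is the contractile unit of striated muscle. Thin filaments of actin carry tropomyosin and the troponin complex, which makes contraction respond to calcium, and thick filaments of myosin carry light chains and myosin-binding protein C. Thin filaments are anchored in the Z-disc, thick filaments are crosslinked at the M-band, and titin spans from one to the other. Desmin filaments tie neighbouring Z-discs together, chaperones fold and protect these proteins, and muscle ubiquitin ligases mark them for breakdown. In diseased hearts the skeletal and fetal paralogues of several of these proteins, among them skeletal actin and slow skeletal troponin I, are classic markers of a return to the fetal programme.

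The 33 genes took 5.55% and 5.69% of all estimated counts in the MI libraries, against 5.08% and 5.67% in the Sham libraries. Totals of the 4 libraries ran from 66624106 to 75979320 counts. Transcripts of mitochondrial DNA took 27.3% and 30.9% in MI and 34.0% and 32.6% in Sham. The libraries also differed in other tissue. Summed CPM (estimated counts relative to a library size scaled by the trimmed mean of M-values, TMM) of 8 atrial markers, among them Nppa, which stressed ventricles also express, was 2221 and 1755 in MI and 187 and 5844 in Sham. Nppa made up most of the sum in both MI libraries, with 2174 and 1717 CPM, and had 162 and 3396 CPM in Sham. The atrial light chain Myl7, the clearest of the 8 markers, had 0.68 and 0.27 CPM in MI and 0.35 and 743 CPM in Sham. Lung markers (10 genes) summed to 267 and 1.17 in MI, where the first library had 0 of them at 0 counts and the second had 7, and to 0.99 and 3.24 in Sham. Fibroblast markers (8 genes) summed to 3177 and 2055 in MI against 719 and 946 in Sham. Endothelial markers (5 genes) summed to 814 and 733 in MI and 575 and 576 in Sham, and macrophage markers (7 genes) to 481 and 297 in MI and 274 and 277 in Sham. The 33 genes themselves summed to 48464 and 55760 CPM in MI and 57914 and 58180 CPM in Sham. In bulk tissue a lower share of cardiomyocytes and less of a transcript in each cardiomyocyte cannot be told apart. The part of the atrial, lung, fibroblast, endothelial and macrophage transcripts in the results below was not tested.

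Gene by gene, 0 of the 33 members reached an adjusted p under 0.05 when MI was tested against Sham (quasi-likelihood test of edgeR), as did 0% of all genes tested. The smallest adjusted p of a member was 0.411, for Tnni3. At an unadjusted p under 0.05, 0 members were higher and 1 was lower in MI, while 7.12% and 4.51% of all genes tested were, so the members were not called more often than other genes. DESeq2 called 0 members (smallest adjusted p 0.130), against 2.18% of all genes higher and 1.26% lower. On the TMM-scaled CPM scale the MI libraries were both higher than either Sham library for 2 members and both lower for 12. Together that is 42.4% of the members, against 46.7% of all genes tested (24.9% above and 21.9% below). The fitted log2 difference was positive for 10 members (50.2% of all genes tested) and negative for 23, with a median of -0.11 beside 0.003 over all genes tested. The 95% interval of the difference lay within 1 log2 unit of 0 for 28 of the 33, and it excluded 0 for 1.

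**Figure D1:**
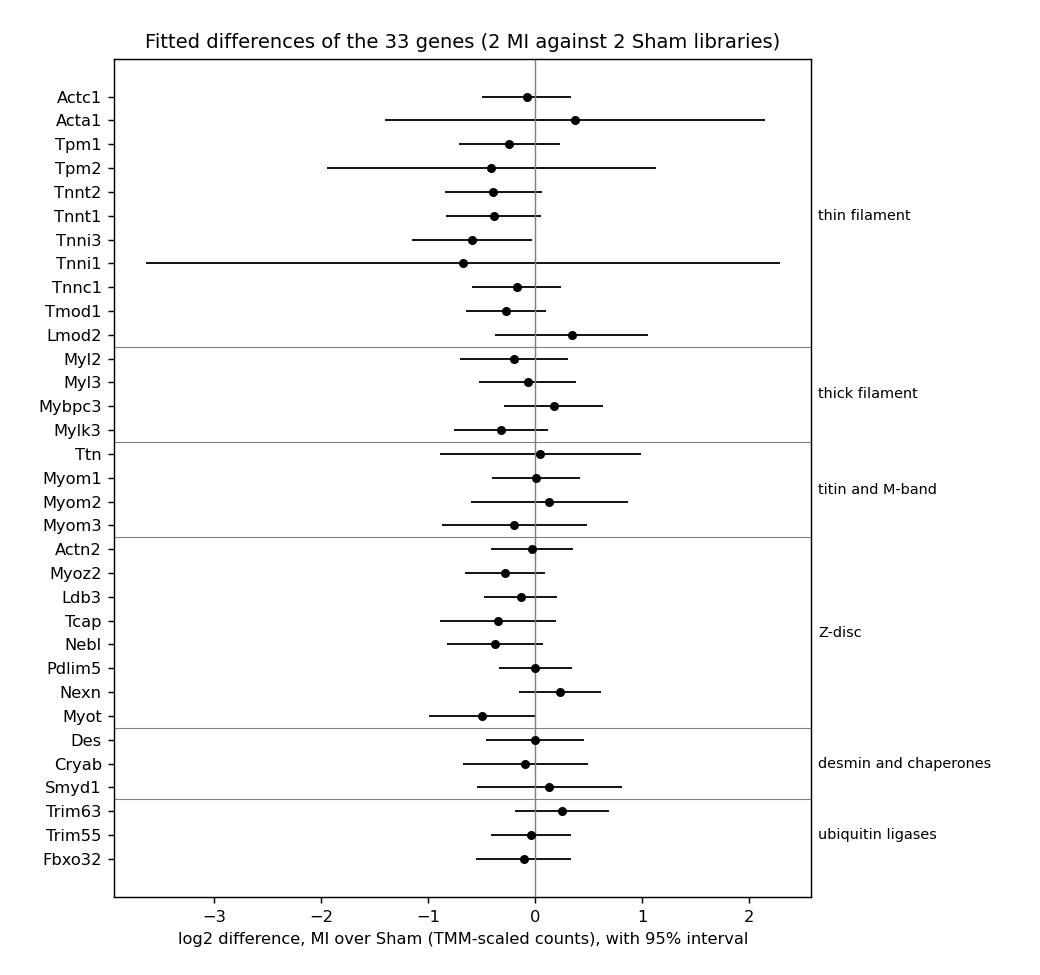
Fitted log2 difference (x axis, MI over Sham, from TMM-scaled counts) of each of the 33 genes (y axis, grouped by role), with its 95% interval from the edgeR fit of 2 MI and 2 Sham libraries. The interval of Tnni3 is the 1 that excludes 0, and those of Tnni1, Acta1 and Tpm2 are the widest drawn.

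The sign of the median depended on what the libraries were scaled to. It was -0.11 with TMM, 0.11 on the deposited FPKM scale (fragments per kilobase of transcript, relative to the library's mapped fragments), 0.04 when mitochondrial transcripts were dropped before scaling to the total, and 0.20 when libraries were scaled to 20 cardiomyocyte genes outside the sarcomere. The number of members with a positive difference was 10, 22, 18 and 24 in the same order. These scalings moved all genes: compared with TMM, the median over the tested genes shifted by 0.09 on the log2(FPKM + 1) scale, by 0.14 without mitochondrial transcripts and by 0.29 with the cardiomyocyte genes. The members' median lay below that of all genes with TMM, without mitochondrial transcripts and with the cardiomyocyte genes, and close to it on the log2(FPKM + 1) scale (0.11 against 0.10). With a pseudocount of 0.1 in place of 1 it lay below there too (0.11 against 0.20). With the cardiomyocyte scaling 4 members were higher at an unadjusted p under 0.05 in edgeR (Des, Myom1, Nexn and Trim63; 13.8% of all genes) and 1, Tnni3, was lower (1.21%). On the FPKM scale 9 members had both MI libraries above both of Sham and 3 had them below, against 39% and 8.89% of all genes tested. The 9 were Lmod2, Mybpc3, Myom1, Actn2, Pdlim5, Nexn, Des, Trim63 and Trim55, and the 3 were Tnnt2, Tnni3 and Myoz2. Summed over the list, the 33 genes stood at 2.33 and 2.35 times the summed CPM of the 20 other cardiomyocyte genes in MI, against 1.70 and 2.17 times in Sham. That ratio does not depend on scaling, and the groups did not overlap. The 20 genes themselves summed to 20843 and 23755 CPM in MI and 34064 and 26848 CPM in Sham. Scaled to them, the median of all genes was 0.30, against 0.20 for the members, so a rise against the 20 was not particular to the members. Among those 20 genes Mb (myoglobin) and Fabp3 (the heart fatty acid binding protein) had the highest mean FPKM, with log2 differences of -0.54 ± 0.26 (SE) and -0.48 ± 0.22. Of the 20, 3 were lower and 0 higher at an unadjusted p under 0.05 in edgeR (4.51% and 7.12% of all genes), and the median difference of the 20 was -0.29. The 3 were Popdc2 (-0.60 ± 0.13), Atp2a2 (-0.58 ± 0.17) and Cox7a1 (-0.48 ± 0.17). DESeq2 called 2 of them lower, Popdc2 (adjusted p = 0.00370) and Atp2a2, the calcium pump of the sarcoplasmic reticulum (adjusted p = 0.0212).

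**Figure D2:**
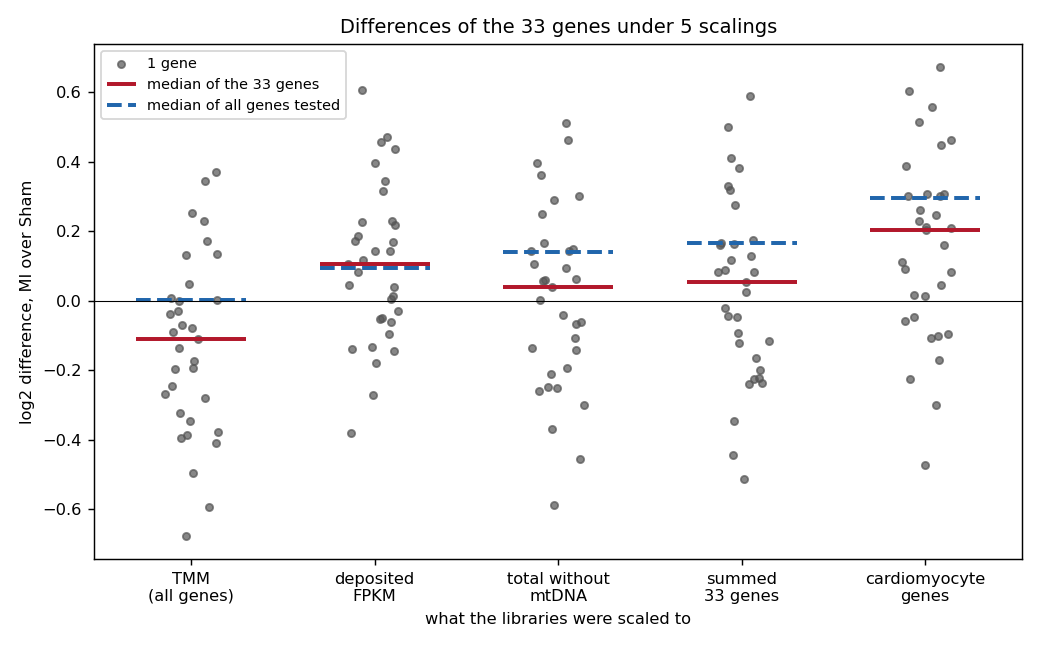
Log2 difference, MI over Sham (y axis), of the 33 genes (grey points, spread sideways for sight) under 5 scalings of the libraries (x axis), with the median of the 33 genes (red line) and of all genes tested (dashed blue line). The red line lies at -0.11 with TMM and at 0.20 with the cardiomyocyte genes, where the dashed line lies at 0.003 and 0.30. From FPKM to the total without mtDNA the red line falls from 0.11 to 0.04. The dashed line rises there from 0.10 to 0.14.

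Levels spanned more than 4 orders of magnitude, as the plot of levels by library shows. On the FPKM scale, which allows genes to be compared, 7 members averaged over 1000 and 4 under 10. Actc1 stood first at 4631 FPKM over the 4 libraries, ahead of Myl2, Tnnc1, Myl3, Tnni3, Tcap and Tpm1, whose means lay between 1020 and 2372 FPKM. Tnnt1, Nebl, Myom3 and Tnni1 averaged 4.39, 6.97, 0.56 and 0.15 FPKM.

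**Figure D3:**
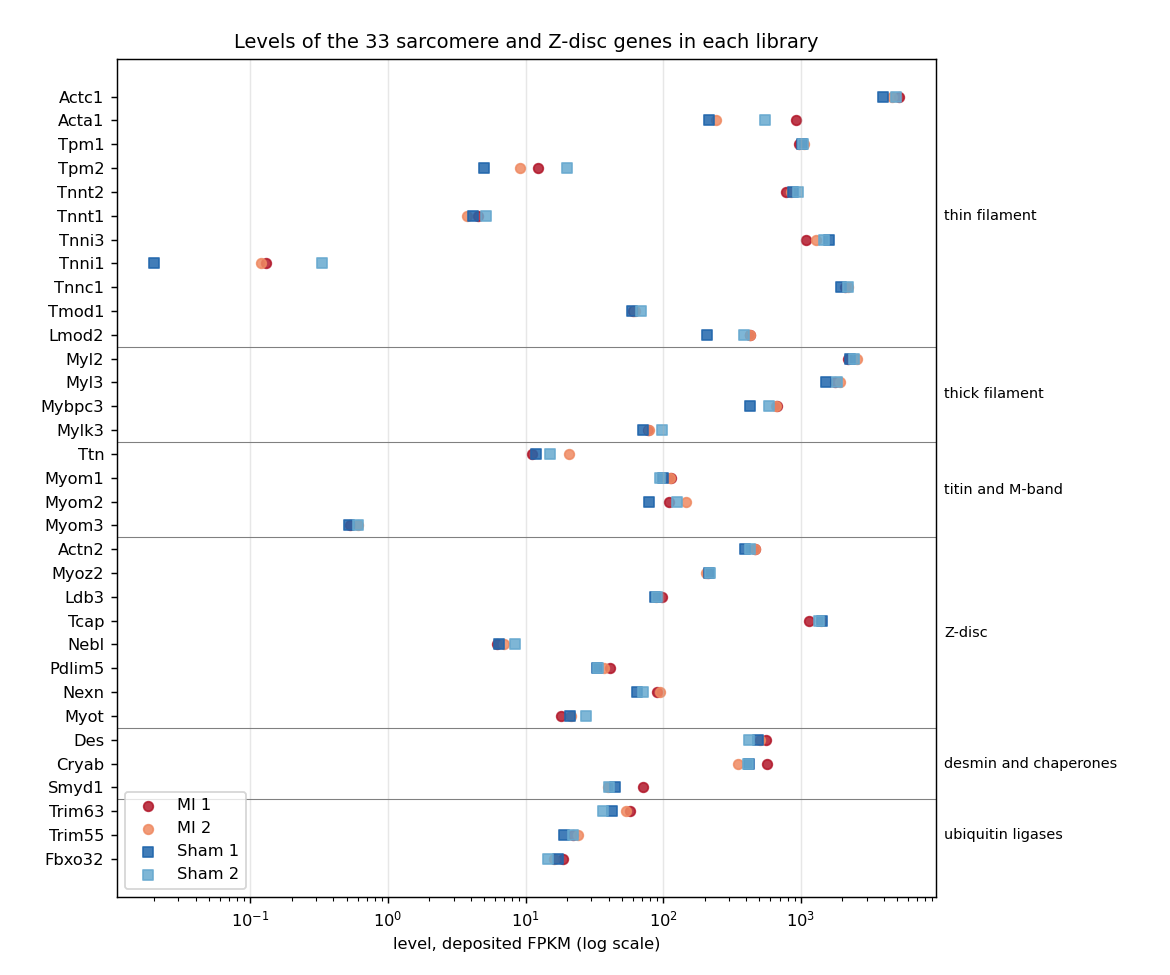
Deposited FPKM (x axis, log scale) of each of the 33 genes (y axis, grouped by role) in every library, with MI libraries as circles and Sham libraries as squares. Actc1 lies highest and Tnni1 lowest, and the 4 points of most genes fall close together, with Acta1, Tpm2 and Tnni1 spread most.

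Among thin filament genes, cardiac troponin I was the 1 member with an unadjusted p under 0.05, and 6 of the 11 members lay lower in both MI libraries with TMM scaling (21.9% of all genes), and 2 of the 11 did on the FPKM scale (8.89%). Tnni3, which encodes cardiac troponin I, the inhibitory subunit (ENSMUSG00000035458, chromosome 7, 4518305 to 4522794, minus strand), had 2139 and 2832 CPM in MI and 4123 and 3370 CPM in Sham. Coordinates are those of the deposited table, whose build the sources used here do not name. The groups did not overlap in CPM or in FPKM. Its log2 difference was -0.59 ± 0.22 (SE; 95% interval -1.15 to -0.03), with an unadjusted p of 0.0417 and an adjusted p of 0.411 in edgeR. Relative to the median of all genes, the difference was -0.39 without MI replicate 1, which held the lung transcripts, and -0.80 without MI replicate 2. It was -0.46 without Sham replicate 1 and -0.77 without Sham replicate 2. Over the alternatives that kept all libraries, the adjusted p ran from 0.130 in DESeq2 to 0.662 in edgeR with the replicate block. The difference was negative in every alternative. Tnnt2, cardiac troponin T, which binds tropomyosin, had 5786 and 6972 CPM in MI and 8459 and 8294 CPM in Sham (log2 difference -0.39 ± 0.17, adjusted p = 0.471 in edgeR). Its groups did not overlap either. Tnnc1, the calcium-binding subunit of slow muscle and heart, had 2063 and 2441 CPM in MI and 2524 and 2555 CPM in Sham (-0.17 ± 0.16). Tpm1, the main cardiac tropomyosin, had 5987 and 7303 CPM in MI and 8232 and 7499 CPM in Sham (-0.24 ± 0.18). On the FPKM scale Tnnt2 had 782 and 841 in MI and 880 and 958 in Sham, again with no overlap, while Tnnc1 and Tpm1 overlapped between the groups. Tnnt1, slow skeletal troponin T, had 9.58 and 8.86 CPM in MI and 11.4 and 12.8 CPM in Sham (-0.39 ± 0.17).

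The genes for proteins of the thin filament's pointed end had differences of opposite sign with TMM scaling. Lmod2, leiomodin, which lengthens thin filaments, had 811 and 904 CPM in MI and 506 and 846 CPM in Sham, so that the groups overlapped (log2 difference 0.34 ± 0.28). On the FPKM scale, with 430 and 428 in MI and 206 and 383 in Sham, they did not. Tmod1, tropomodulin, which caps them, had 226 and 264 CPM in MI and 288 and 303 CPM in Sham (-0.27 ± 0.14), with no overlap. On the FPKM scale the Tmod1 groups overlapped, with 59.85 and 62.6 in MI and 58.8 and 68.6 in Sham. Neither passed (adjusted p = 0.667 for Lmod2 and 0.529 for Tmod1 in edgeR). Lmod2 was lowest in Sham replicate 1, and without that library its difference was 0.00 relative to the median of all genes, against 0.72 without Sham replicate 2.

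The sarcomeric actins varied differently across libraries. Actc1, cardiac actin (ENSMUSG00000068614, chromosome 2, 114047282 to 114053548, minus strand), had 7944 and 7893 CPM in MI and 7890 and 8833 CPM in Sham (log2 difference -0.08 ± 0.16, 95% interval -0.50 to 0.34). Acta1, skeletal actin (ENSMUSG00000031972, chromosome 8, 123891769 to 123894751, minus strand), had 1350 and 395 CPM in MI and 408 and 941 CPM in Sham. MI replicate 1 and Sham replicate 2 were high and the others low, so the groups overlapped (0.37 ± 0.69, 95% interval -1.41 to 2.15). The coding sequences of the 2 genes have 1134 bases each and are identical at 977 of them (86.2%) in GENCODE M21. The longest run with no difference is 29 bases, and 0 windows of 150 bases, the read length the labels give, are free of one. The first 90 coding bases are shown because they let the transcripts be told apart, with the bases that differ between them in capitals.
Acta1: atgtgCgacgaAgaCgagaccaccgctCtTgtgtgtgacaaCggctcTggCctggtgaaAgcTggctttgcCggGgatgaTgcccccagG
Actc1: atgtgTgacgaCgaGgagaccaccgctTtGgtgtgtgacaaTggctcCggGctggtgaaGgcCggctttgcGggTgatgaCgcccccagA
The sources used here do not say how reads that fit both genes were counted.

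Promoter windows are printed for the actins, whose levels differed by library, and for Tnni3 and Mybpc3, whose fitted differences had opposite signs. They run from 250 bases before to 50 after the start in RefSeq (GRCm38.p6). Capitals mark a CArG box (the binding sequence of serum response factor, SRF) and TATAAA in the actins and a MEF2 site in Mybpc3, and nothing in Tnni3. Counted from the RefSeq start, TATAAA begins at -7 in Acta1 and at 33 in Actc1, where it lies after the start.
Acta1 (chr8:123894726-123895025, - strand): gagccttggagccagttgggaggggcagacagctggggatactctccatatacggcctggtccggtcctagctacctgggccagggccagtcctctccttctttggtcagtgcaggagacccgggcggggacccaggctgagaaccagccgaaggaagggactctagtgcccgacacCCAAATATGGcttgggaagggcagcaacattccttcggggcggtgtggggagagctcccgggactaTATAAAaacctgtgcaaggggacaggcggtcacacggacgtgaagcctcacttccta
Actc1 (chr2:114052826-114053125, - strand): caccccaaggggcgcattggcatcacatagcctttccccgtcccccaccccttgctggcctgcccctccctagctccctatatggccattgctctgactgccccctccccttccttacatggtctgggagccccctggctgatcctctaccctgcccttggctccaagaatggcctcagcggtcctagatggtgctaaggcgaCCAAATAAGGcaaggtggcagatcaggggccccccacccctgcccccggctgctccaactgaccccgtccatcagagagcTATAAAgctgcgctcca
Tnni3 (chr7:4522479-4522778, - strand): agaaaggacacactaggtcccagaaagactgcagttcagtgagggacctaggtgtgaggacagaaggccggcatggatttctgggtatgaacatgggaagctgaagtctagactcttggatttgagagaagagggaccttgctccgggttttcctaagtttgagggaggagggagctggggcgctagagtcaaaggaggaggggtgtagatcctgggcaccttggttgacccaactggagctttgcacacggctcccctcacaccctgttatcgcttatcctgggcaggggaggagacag
Mybpc3 (chr2:91117894-91118193, + strand): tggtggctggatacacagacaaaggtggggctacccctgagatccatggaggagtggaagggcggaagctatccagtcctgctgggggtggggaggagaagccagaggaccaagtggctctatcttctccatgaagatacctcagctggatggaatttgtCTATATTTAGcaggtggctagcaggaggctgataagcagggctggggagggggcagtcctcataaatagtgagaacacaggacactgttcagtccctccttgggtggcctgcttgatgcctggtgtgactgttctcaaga
Both strands were searched in 35 windows of the 26 members with an entry. Cryab, Tcap, Trim55, Fbxo32, Myot, Nexn and Myom2 have none. A CArG box stood in 7 of them (20.0%), in Acta1, Actc1, Ldb3, Myl3, Myom1 and Nebl, against 1.63% of all 32851 windows. A MEF2 site stood in 4 (11.4%), in Mybpc3, Myom3, Myoz2 and Ttn, against 3.19%. TATAAA stood in 7 (20.0%, against 13.6%), and CATTCC, the core of the MCAT element bound by TEAD factors, in 10 (28.6%, against 14.7%). In Acta1 the CArG box and TATAAA do not overlap, nor do they in Actc1. These matches describe letters in the windows only. Among the members with a CArG box, log2 differences ran from -0.38 for Nebl to 0.37 for Acta1. Among those with a MEF2 site they ran from -0.28 for Myoz2 to 0.17 for Mybpc3.

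None of the 4 thick filament genes passed, and 1 had groups that did not overlap in CPM, as did 46.7% of all genes tested. Myl2, the ventricular regulatory light chain, had 4096 and 5367 CPM in MI and 5533 and 5282 CPM in Sham (log2 difference -0.19 ± 0.19). Myl3, the ventricular essential light chain, had 3467 and 4212 CPM in MI and 3879 and 4176 CPM in Sham (-0.07 ± 0.17). For both light chains MI replicate 1 was the lowest library and the groups overlapped. Mybpc3, cardiac myosin-binding protein C (ENSMUSG00000002100, chromosome 2, 91118144 to 91136510, plus strand), had 2673 and 2918 CPM in MI and 2218 and 2744 CPM in Sham (0.17 ± 0.18, 95% interval -0.29 to 0.63). Without Sham replicate 1 its difference was 0.007 relative to the median of all genes, without Sham replicate 2 it was 0.29, and without MI replicate 2 it was 0.11. Mylk3, the cardiac kinase of the regulatory light chain, had 318 and 360 CPM in MI and 378 and 468 CPM in Sham. Its CPM groups did not overlap (-0.32 ± 0.17, adjusted p = 0.524 in edgeR). On the FPKM scale they did, with 77.7 and 78.5 in MI and 71.2 and 97.8 in Sham.

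Titin and the M-band genes overlapped between the groups in CPM. Ttn had 1251 and 2572 CPM in MI and 1730 and 1964 CPM in Sham (log2 difference 0.05 ± 0.36). The MI libraries were the lowest and the highest of the 4, and without MI replicate 2 the difference was -0.56. Myom1, myomesin, the main crosslinker of the M-band, had 1139 and 1254 CPM in MI and 1280 and 1099 CPM in Sham (0.01 ± 0.16). Myom2, its paralogue of fast muscle and adult heart, had 931 and 1382 CPM in MI and 862 and 1248 CPM in Sham (0.13 ± 0.28). Myom3, the third paralogue, was close to silent at 0.53 and 0.60 FPKM in MI and 0.52 and 0.60 FPKM in Sham.

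Of 8 Z-disc genes, 5 lay lower and 1 higher in both MI libraries with TMM scaling, where 21.9% of all genes did the first and 24.9% the second. On the FPKM scale 1 lay lower and 3 higher (8.89% and 39% of all genes). None passed an adjusted p under 0.05 in edgeR (smallest 0.433). Myot, myotilin, an actin-bundling Z-disc protein, had 38.2 and 50.8 CPM in MI and 57.1 and 68.1 CPM in Sham (log2 difference -0.49 ± 0.19, unadjusted p = 0.0523 in edgeR). Nebl, nebulette, the cardiac relative of nebulin, had 89.7 and 113 CPM in MI and 122 and 142 CPM in Sham (-0.38 ± 0.17). Tcap, telethonin, which caps titin at the Z-disc, had 1033 and 1410 CPM in MI and 1664 and 1440 CPM in Sham (-0.35 ± 0.21). The CPM groups of these 3 genes did not overlap, and the FPKM groups did. Myoz2, a calcineurin-binding calsarcin, and Ldb3, a PDZ-LIM protein, had differences of -0.28 ± 0.14 and -0.14 ± 0.13.

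Nexn, nexilin, an actin-binding protein of the Z-disc and junctional membranes (ENSMUSG00000039103, chromosome 3, 152236982 to 152266318, minus strand), had a positive difference. It had 326 and 390 CPM in MI and 305 and 306 CPM in Sham, with no overlap (log2 difference 0.23 ± 0.15, 95% interval -0.15 to 0.62). On the FPKM scale it had 89.3 and 95.3 in MI and 64.2 and 71.7 in Sham, and its difference was positive under every alternative run. Relative to the median of all genes it was 0.10 without MI replicate 2 and 0.37 without MI replicate 1. Actn2, alpha-actinin, the main crosslinker of the Z-disc, and Pdlim5, which binds it, had differences of -0.03 ± 0.15 and 0.00 ± 0.13. Their CPM groups overlapped.

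Desmin and the chaperones overlapped between the groups in CPM. Des had 2010 and 2010 CPM in MI and 2252 and 1772 CPM in Sham (log2 difference -0.00 ± 0.18). Cryab, alpha-B crystallin, a small heat shock protein that protects desmin and titin, had 807 and 553 CPM in MI and 770 and 677 CPM in Sham. Smyd1, a muscle methyltransferase needed for myosin assembly, had 307 and 194 CPM in MI and 250 and 206 CPM in Sham. For both genes MI replicate 1 was the highest library and MI replicate 2 the lowest, so their differences of -0.09 ± 0.23 and 0.13 ± 0.26 rest on libraries that disagree. Krcc1, which lies across Smyd1 on the other strand, had 868 and 3349 counts in MI and 2817 and 616 counts in Sham, in all 10.95% of the counts of Smyd1. Hspb2 overlaps Cryab in the same way with 5.81% of its counts. For Fbxo32 and Tmod1 the antisense partners had 4.29% and 2.84% of the member's counts. The sources used here do not say whether strand was used in counting, so reads of such partners cannot be told apart.

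The ubiquitin ligases of muscle atrophy had differences of both signs with TMM scaling, and all 3 were positive in limma on FPKM. Trim63, which encodes MuRF1, a ligase for sarcomere proteins (ENSMUSG00000028834, chromosome 4, 134315120 to 134329629, plus strand), had 155 and 163 CPM in MI and 151 and 116 CPM in Sham. The groups did not overlap, and the log2 difference was 0.25 ± 0.17 (adjusted p = 0.606 in edgeR). Relative to the median of all genes it was 0.03 without Sham replicate 2 and 0.43 without Sham replicate 1. Trim55, encoding its relative MuRF2, had 56.6 and 68.4 CPM in MI and 62.8 and 65.3 CPM in Sham (-0.04 ± 0.14). Fbxo32, encoding the ubiquitin ligase component atrogin-1, had 124 and 119 CPM in MI and 149 and 114 CPM in Sham (-0.11 ± 0.17).

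A switch between paralogues was looked for in 5 shares of summed FPKM, each tested by a two-sided exact permutation test, which with 2 libraries against 2 cannot give a p under 0.333. Acta1 made up 15.2% and 5.01% of sarcomeric actin in MI and 5.16% and 10.1% in Sham, on average 10.1% ± 7.19 in MI and 7.63% ± 3.48 in Sham (SD, n = 2 each; exact permutation p = 1). Tpm2, the beta tropomyosin, made up 1.25% and 0.86% of both tropomyosins in MI and 0.49% and 1.89% in Sham. Tnnt1 made up 0.58% and 0.44% of the pair with Tnnt2 in MI and 0.47% and 0.53% in Sham. Myom2 made up 49.0% and 56.4% of the myomesins in MI and 44.2% and 57.2% in Sham. Tnni1, slow skeletal troponin I, had 38 and 35 counts in MI and 7 and 87 counts in Sham, where replicate 1 lay under the floor of 12 counts (about 3 fragments). It made up at most 0.0226% of troponin I. Each of the 5 shares had an exact permutation p of 1 (smallest adjusted over the 5: 1), and none of them separated the groups.

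The paralogues that varied most were higher in Sham replicate 2, the library with atrial transcripts, than in Sham replicate 1. Tpm2 had 34.0 and 28.6 CPM in MI and 18.1 and 64.8 CPM in Sham, so that the MI values lay between those of Sham (log2 difference -0.41 ± 0.59). Relative to the median of all genes its difference was 0.74 without Sham replicate 2 and -1.07 without Sham replicate 1. For Acta1 it was 1.05 without Sham replicate 2, -0.13 without Sham replicate 1 and -0.76 without MI replicate 1. Sham replicate 2 also held adipocyte markers, whose 6 genes summed to 1.70 and 2.77 CPM in MI and 0.91 and 290 CPM in Sham.

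**Figure D4:**
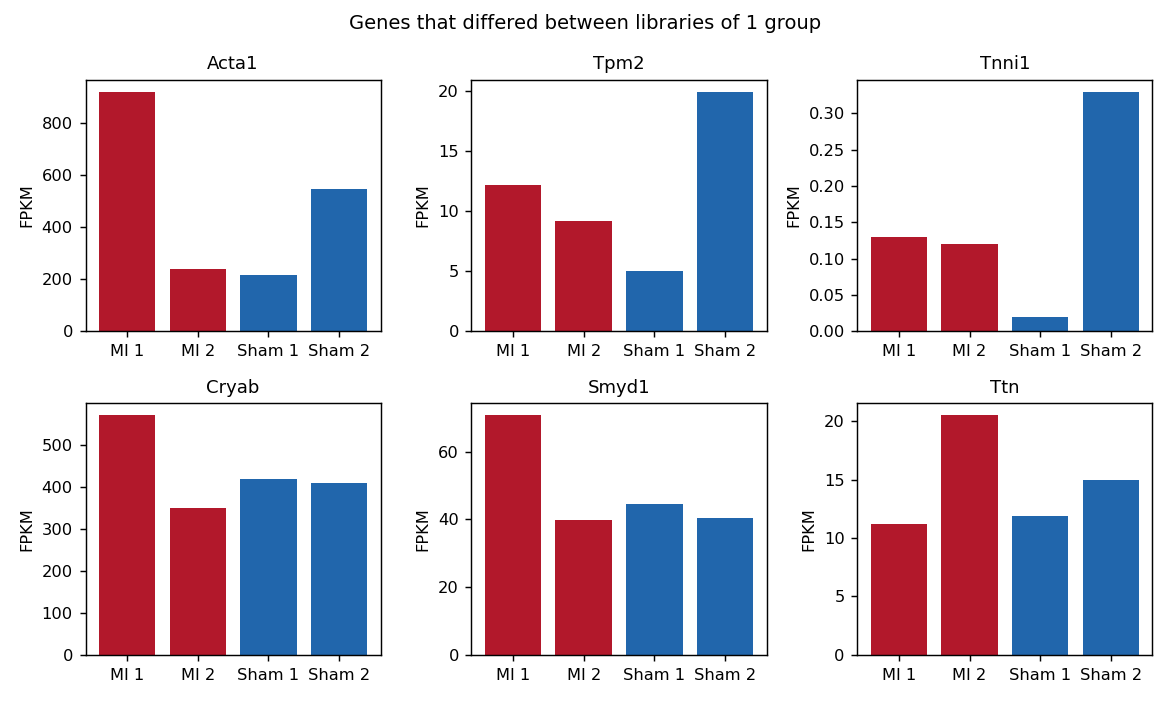
Deposited FPKM (y axis) in each MI (red) and Sham (blue) library (x axis) of 6 genes picked because libraries of the same group differed. Other genes that differed, such as Lmod2 (206 and 383 FPKM in Sham), are not drawn. Acta1 is high in MI replicate 1 and Sham replicate 2, Tpm2 and Tnni1 are highest in Sham replicate 2, and Ttn is highest in MI replicate 2.

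Because the overall scaling moved every member together, the balance within the list was also described as each gene's share of the 33 genes' summed FPKM, a measure added after the values were seen. In these shares the MI libraries both exceeded the Sham libraries for 8 members and were both lower for 8, where 35.1% and 11.9% of all genes tested, measured against the same sum, did. The higher ones were Lmod2, Mybpc3, Myom1, Actn2, Pdlim5, Nexn, Trim63 and Trim55. The lower ones were Tnnt2, Tnnt1, Tnni3, Tmod1, Mylk3, Myoz2, Nebl and Myot. Tnni3 held 5.48% and 6.59% of the sum in MI and 9.12% and 7.34% in Sham, while Mybpc3 held 3.39% and 3.36% in MI and 2.43% and 2.96% in Sham. Lmod2 held 2.17% and 2.19% in MI and 1.17% and 1.92% in Sham. With libraries scaled to the members' summed counts, 1 member was higher at an unadjusted p under 0.05 in edgeR (9.82% of all genes) and 1 was lower (2%). These were Nexn (log2 difference 0.38 ± 0.13, adjusted p = 0.381) and Tnni3 (-0.44 ± 0.16, adjusted p = 0.390).

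Ratios between pairs of members do not depend on scaling. They were computed for 14 pairs, chosen after their values were seen and given with no test. The groups did not overlap in 7 of them and overlapped in the other 7. In CPM the groups did not overlap for 46.7% of all genes tested, and no share over all pairs was computed. Since the pairs were chosen with their values known, the count of 7 shows nothing about the members as a set. The FPKM ratio of Tnni3 to Tnnc1 was 0.52 and 0.59 in MI and 0.82 and 0.67 in Sham. That of Tnnt2 to Tnnc1 was 0.38 in each MI library, against 0.45 and 0.44 in Sham. The ratio of Lmod2 to Tmod1 was 7.19 and 6.83 in MI and 3.51 and 5.58 in Sham. That of Nexn to Actn2 was 0.192 and 0.204 in MI and 0.163 and 0.169 in Sham, and that of Trim63 to Fbxo32 was 3.06 and 3.35 in MI and 2.48 and 2.51 in Sham. The ratio of Trim63 to Trim55 overlapped, at 2.56 and 2.23 in MI and 2.25 and 1.66 in Sham. Myl2 stood at 1.24 and 1.34 times Myl3 in MI and 1.495 and 1.326 times in Sham, so the light chains overlapped. The ratio of Ttn to Myom1 overlapped as well, at 0.098 and 0.183 in MI and 0.121 and 0.159 in Sham.

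**Figure D5:**
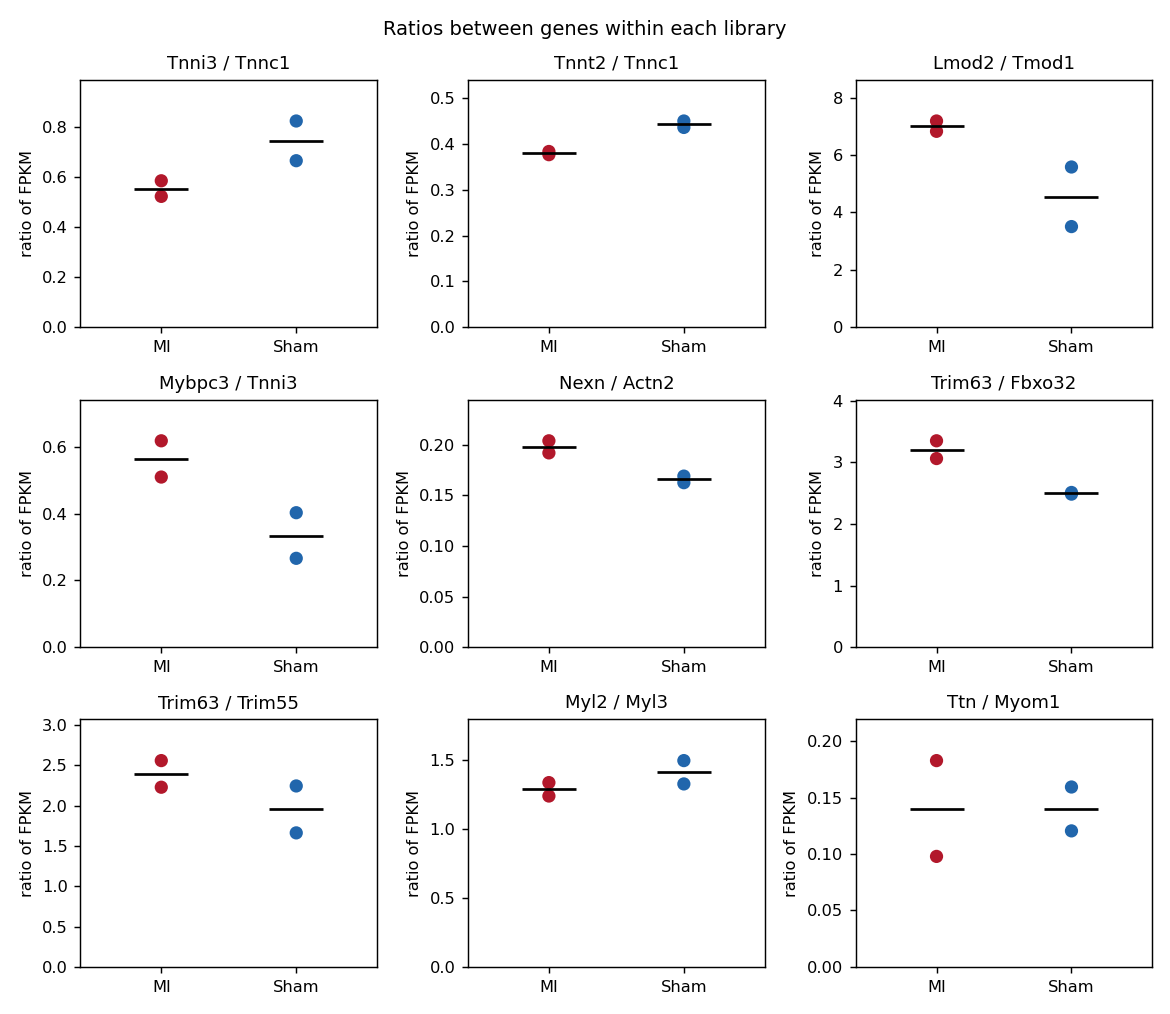
Ratios of FPKM between 2 members within each library (y axis) in the MI and Sham groups (x axis), with points for libraries and a bar for the group mean. The MI points of Tnni3 and Tnnt2 over Tnnc1 lie below the Sham points, and those of Lmod2 over Tmod1, Mybpc3 over Tnni3, Nexn over Actn2 and Trim63 over Fbxo32 lie above them. In the bottom row, Trim63 over Trim55, Myl2 over Myl3 and Ttn over Myom1, the groups overlap.

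Other genes of the sarcomere and Z-disc, a list of 42 of which 41 were tested, had a median log2 difference of -0.03. At an unadjusted p under 0.05 in edgeR 3 were higher and 4 lower, beside 7.12% and 4.51% of all genes, and 0 passed an adjusted p under 0.05. The highest in mean FPKM, Hspb7 (a small heat shock protein) and Fhl2 (a LIM protein of the Z-disc), had -0.05 ± 0.16 and -0.03 ± 0.15. Synpo2l, an actin-bundling Z-disc protein, had 204 and 284 CPM in MI and 79.5 and 128 CPM in Sham (1.24 ± 0.30). Xirp2, an actin-binding protein of the Z-disc and intercalated disc, had 551 and 692 CPM in MI and 365 and 343 CPM in Sham (0.81 ± 0.17). Csrp3, muscle LIM protein, had 602 and 651 CPM in MI and 1010 and 988 CPM in Sham (-0.67 ± 0.14). Klhl40, which stabilises nebulin and leiomodin in skeletal muscle, had 9.05 and 10.6 CPM in MI and 18.3 and 17.6 CPM in Sham (-0.87 ± 0.17). In these 4 genes the groups did not overlap, and DESeq2 called each (adjusted p between 0.000520 and 0.00603). Their edgeR adjusted p was at least 0.275. The remaining 3 at an unadjusted p under 0.05 in edgeR, named after their values were seen, were Tpm4 (0.44 ± 0.15), Cmya5 (-0.44 ± 0.17) and Mybphl. Mybphl had 0.13 and 0.15 CPM in MI and 0.20 and 114 CPM in Sham, in Sham nearly all in the library with atrial transcripts. DESeq2 called Mybphl too (adjusted p = 0.0183). In all it called 5 of the list, against 2.18% of all genes higher and 1.26% lower. The CPM groups did not overlap for 48.8% of the tested genes of the list, against 46.7% of all genes.

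Of 15 regulators of sarcomere genes, 0 were higher and 1 was lower at an unadjusted p under 0.05 in edgeR (7.12% and 4.51% of all genes), and the median log2 difference was -0.06. The 1 was Hand2, a heart transcription factor, with 35.0 and 38.2 CPM in MI and 52.2 and 59.5 CPM in Sham (-0.61 ± 0.14, adjusted p = 0.306 in edgeR and 0.0316 in DESeq2). Klf15, the highest in mean FPKM, had -0.06 ± 0.11. Transcripts of fast skeletal muscle (13 genes) summed to 89.7 and 46.2 CPM in MI and 52.3 and 121 CPM in Sham. That is far under the sum of the 33 genes, but above Tnni1, Tnnt1 and Tpm2 in every library. Myl1 had 32.55 and 18.4 CPM in MI and 23.8 and 79.9 CPM in Sham. Mybpc2, next to Myl1 in mean FPKM, had 27.2 and 20.9 CPM in MI and 17.2 and 28.9 CPM in Sham. Mylpf, which the naming plan did not cover, had 3.85 and 0.46 CPM in MI and 0.49 and 0.43 CPM in Sham. It was highest in MI replicate 1, as were Myh1, Myh2, Myh4, Tnnt3, Tnni2, Tnnc2, Mybpc1 and Atp2a1, while Myl1, Mybpc2, Neb and Actn3 were not. The part of these transcripts in the Acta1 level of that library was not tested.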

How the data were processed

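RNA sequencing of mouse heart at day 28 was used, with 2 MI and 2 Sham libraries. Libraries were paired-end, from poly(A) RNA and marked for strand with dUTP, per the labels' protocols. For each gene the deposited table holds an estimated count and an FPKM, which the authors normalized for length and depth. The submitters' processing notes name, in no order, StringTie 1.3.4d, HISAT2 2.0.4, UMI-tools and cutadapt 1.9, and the build is not given in the sources used here. Among the members, 25 have the same span in GENCODE M21 (GRCm38). Deposited estimated counts are whole numbers that pile up at 4 (1174 genes in MI replicate 1, against 331 at 3), so about 4 stand for 1 fragment. The floor of 12 covers counting error only, since PCR copies are not independent.

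Groups came from the sample titles. All genes were fitted in edgeR 4.0.16 (R 4.3.3) with filterByExpr (min.count 10, min.total.count 15), TMM scaling, a model of group alone and Benjamini-Hochberg adjusted p-values called at 0.05. The standard error was taken from the fold change and its F statistic. DESeq2 1.42.0, limma 3.58.1 on log2(FPKM + 1), and the settings of the closing section were alternatives. The steps were run on simulated counts drawn with less spread between libraries than these data. That run therefore does not show how many changes would be missed here. Named were members with an unadjusted p under 0.05 in edgeR, the 8 of highest mean FPKM and the paralogue sets. Members with separated groups and a difference over 0.3 were named too. Of other lists the plan named the 2 of highest mean FPKM, with those at an unadjusted p under 0.05, up to 6 in all. Atrial, lung, fibroblast, endothelial, macrophage and adipocyte markers are given as sums instead, with only Nppa and Myl7 named. Smooth muscle markers are not reported here, and Mylpf was named outside the plan. The members and lists were chosen with earlier results of these data known.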

Additional observations from a re-analysis of the deposited data

How the results depend on the processing

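With 2 libraries per group the median standard error of a member's log2 difference was 0.17, so a missing call does not show that the groups were alike, and shares of paralogues could not reach a p under 0.333. Of 429 member differences recomputed under 13 alternatives, taken relative to the shift of the median of all genes, 37 changed sign in 16 members, and 17 members kept their sign throughout. No member passed an adjusted p under 0.05 in any of them.

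Members lower at an unadjusted p under 0.05 numbered 2 with RLE scaling (4.8% of all genes), 3 in DESeq2 (5.53%) and 2 without mitochondrial transcripts (2.34%). Higher ones numbered 2 in limma on FPKM with either pseudocount (12% of all genes with 1, 11.9% with 0.1), 2 without mitochondrial transcripts (10.6%), 4 with cardiomyocyte scaling (13.8%) and 1 scaled to the members' sum (9.82%), a setting added after the data were seen. Leaving out each library gave 0 to 2 higher, 0 to 3 lower, and 0 to 14 genes called in all (14 without Sham replicate 1, 5 without Sham replicate 2, 0 without either MI library). DESeq2 called 635 genes. The other sarcomere genes at an unadjusted p under 0.05 in edgeR numbered 4 with the replicate block and 12 with cardiomyocyte scaling, against 7. Of all genes, 5.42% were higher and 2.99% lower with the block, and 13.8% and 1.21% with cardiomyocyte scaling. With TMM and group alone, where the 7 were found, 7.12% of all genes were higher and 4.51% lower. The members' median was 0.11 in limma on FPKM with both pseudocounts, 0.0392 without mitochondrial transcripts, 0.20 with cardiomyocyte scaling, 0.056 scaled to the members' sum, and -0.20 to -0.10 with a library left out (-0.20 without MI replicate 2). The cause of these changes was not tested.

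In limma on log2(FPKM + 1) the sign changed for Actc1 (0.051), Myl3 (0.0524), Actn2 (0.096), Des (0.136), Cryab (0.0139), Trim55 (0.0769) and Fbxo32 (0.025). With a pseudocount of 0.1 it changed for Ttn (-0.0152) and Des (0.0345). Des was at 0.00592 without mitochondrial transcripts and at 0.0135 with cardiomyocyte scaling. With the replicate block it changed for Tnni1 (0.108), Ttn (-0.0528), Myom1 (-0.00185) and Pdlim5 (-0.00883). Same-numbered libraries had a correlation of deviations of -0.056. With 2 libraries per group, that value cannot show whether the replicate numbers pair the libraries. Under the block 1 member, Myot in place of Tnni3, was lower at an unadjusted p under 0.05 in edgeR (2.99% of all genes).

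With 1 library left out, differences that changed sign ran from -0.759 to 1.05 for Acta1, -1.07 to 0.742 for Tpm2, -1.58 to 1.98 for Tnni1, -0.396 to 0.00341 for Myl2, -0.212 to 0.0784 for Myl3, -0.558 to 0.491 for Ttn, -0.142 to 0.103 for Myom1, -0.176 to 0.403 for Myom2, -0.111 to 0.0683 for Actn2, -0.104 to 0.0486 for Pdlim5, -0.208 to 0.162 for Des, -0.374 to 0.161 for Cryab, -0.22 to 0.434 for Smyd1, -0.175 to 0.108 for Trim55 and -0.335 to 0.0802 for Fbxo32.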
